A study of Mus musculus with 16 samples.

Results

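The genes described here make, bind, sense and destroy retinoic acid, the acid form of vitamin A that patterns the early embryo. They were the 9 genes Aldh1a2, Stra6, Crabp1, Crabp2, Rara, Rarb, Rarg, Cyp26a1 and Cyp26b1, taken by gene symbol whatever their values, out of 18193 genes that the arrays name by a probe set of their own. The 9 genes were read by 10 probe sets of 45037, since Rarg has 2. The set was selected on earlier results of these data, in which the measured value of Cyp26a1 fell in NERT mesodermal cells with OHT and with CHX, so those values are given as a description without a test.

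RNA was hybridised to 16 arrays, of which 12 came from EB5 NERT cells and 4 from EB5 control cells. EB5 is a mouse embryonic stem cell (ESC) line. The NERT line makes an active form of Notch1, its intracellular domain, fused to a receptor part that keeps it out of the nucleus until hydroxytamoxifen (OHT) is added. The control line carries an empty construct. In mesodermal cells of the NERT line 4 groups of 2 arrays each were measured: CHX with OHT, CHX alone, OHT alone, and neither. CHX is cycloheximide, which blocks protein synthesis, so that changes which still occur need no newly made protein. Single arrays stood for each of the following conditions, with and without OHT: mesodermal cells of the control line, NERT ESC in the ectodermal medium ESCe, NERT ESC in the mesodermal medium ESCm, and control ESC in ESCm. The dose of OHT was 1 µM and that of CHX 50 µg/ml, each over 4 h, and mesodermal differentiation had lasted 4 d according to the labels. Each genotype is represented by 1 line, and the labels do not say whether the replicate arrays came from separate cultures, so the p-values here rest on a spread between arrays that could be purely technical. The marker lists matched the population names in part: of 9 early mesoderm and primitive streak genes 7 were higher in uninduced NERT mesodermal cells than in ESC of the same line, but Kdr (Flk1), by which differentiation was followed, averaged 253 in uninduced NERT mesodermal cells, against 197 in uninduced NERT ESC in ESCm. Of the 9, Aplnr, Evx1, Fgf8 and Lhx1 were tested only through their level in mesodermal cells. For the control line 5 of the 9 were called higher and 1 lower in mesodermal cells than in ESC. There Kdr stood at 106 in uninduced mesodermal cells, against 172 in uninduced ESC in ESCm. The 8 ESC marker genes summed to 10508 in these mesodermal cells, against 13893 in these ESC. The Notch response genes Hes5, Nrarp, Hey1 and Hes1 summed to 7276 to 7784 in NERT mesodermal cells with OHT, against 1006 to 1126 without it.

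Retinol enters cells through transporters such as Stra6, is oxidised to retinal and then, by retinaldehyde dehydrogenases such as Aldh1a2, to retinoic acid. Crabp1 and Crabp2 carry retinoic acid within the cell. Rara, Rarb and Rarg are its nuclear receptors, which bind DNA together with retinoid X receptors at paired half-sites. The enzymes Cyp26a1 and Cyp26b1 break retinoic acid down. Cyp26a1 and Rarb are classical direct targets of retinoic acid, through elements in their promoters in which 2 half-sites of 6 bases are repeated in the same direction with a spacer of 5 bases.

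The promoters of these 2 genes are shown because their transcripts moved with CHX in opposite directions. Each is the stretch of 250 bases before the RefSeq start site in the build GRCm38.p6, read in the direction of the gene, with the repeat and its spacer in capitals. The Cyp26a1 stretch lies on the plus strand at chr19:37697558-37697807 and the Rarb stretch on the minus strand at chr14:16575477-16575726.
Cyp26a1: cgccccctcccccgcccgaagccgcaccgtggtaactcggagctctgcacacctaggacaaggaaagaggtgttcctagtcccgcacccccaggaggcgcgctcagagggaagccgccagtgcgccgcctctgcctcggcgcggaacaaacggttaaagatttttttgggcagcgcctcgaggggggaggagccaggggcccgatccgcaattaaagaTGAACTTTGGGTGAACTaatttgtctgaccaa
Rarb: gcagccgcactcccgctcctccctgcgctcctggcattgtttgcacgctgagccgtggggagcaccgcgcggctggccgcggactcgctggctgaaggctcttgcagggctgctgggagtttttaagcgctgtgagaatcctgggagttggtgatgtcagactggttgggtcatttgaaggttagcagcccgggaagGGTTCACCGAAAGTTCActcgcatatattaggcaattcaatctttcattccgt
The repeat of Cyp26a1 covered positions -32 to -16 from the start site, on the strand opposite to the gene. In the direction of its half-sites it reads
Cyp26a1 element: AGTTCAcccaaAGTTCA
Rarb element: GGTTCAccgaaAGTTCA
with the half-sites in capitals. The Rarb element covered positions -53 to -37, on the strand of the gene. The elements were identical at 15 of 17 bases, of which 5 of 6 were in the first half-site, 4 of 5 in the spacer and 6 of 6 in the second half-site. Half-sites searched were AGGTCA, the usual half-site, then AGTTCA as in both promoters, then GGTTCA as in Rarb, and finally GGGTCA. The search took any 2 of them with 5 bases in between, on both strands, in windows from 250 bases before to 50 after the start site. Such a repeat was in 32 of 32851 RefSeq windows (0.0974%). It was in no other window of the 8 members that have one. The same half-sites with 2 bases between them were in 0.268% of windows and in none of a member. TGGGAA, the core letters bound by the Notch partner RBP-J, was searched on both strands and was in 25.6% of windows. Among the members it was in windows of Stra6 and Rara. Crabp2 was not searched. A match describes the letters of a window and is no evidence of binding.

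The level of the 10 probe sets over the 16 arrays spread widely. The values are model-based intensities on a linear scale. Different probe sets bind with different strength, so their levels are not compared with each other. Cyp26b1 was read at 1.00 to 4.68, and Stra6 at 19.4 to 45.3. Neither reached a mean of 50 in any group, which the test required. The other 8 probe sets, for 7 genes, were tested. Rarb passed that filter through the groups with CHX.

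**Figure D1:**
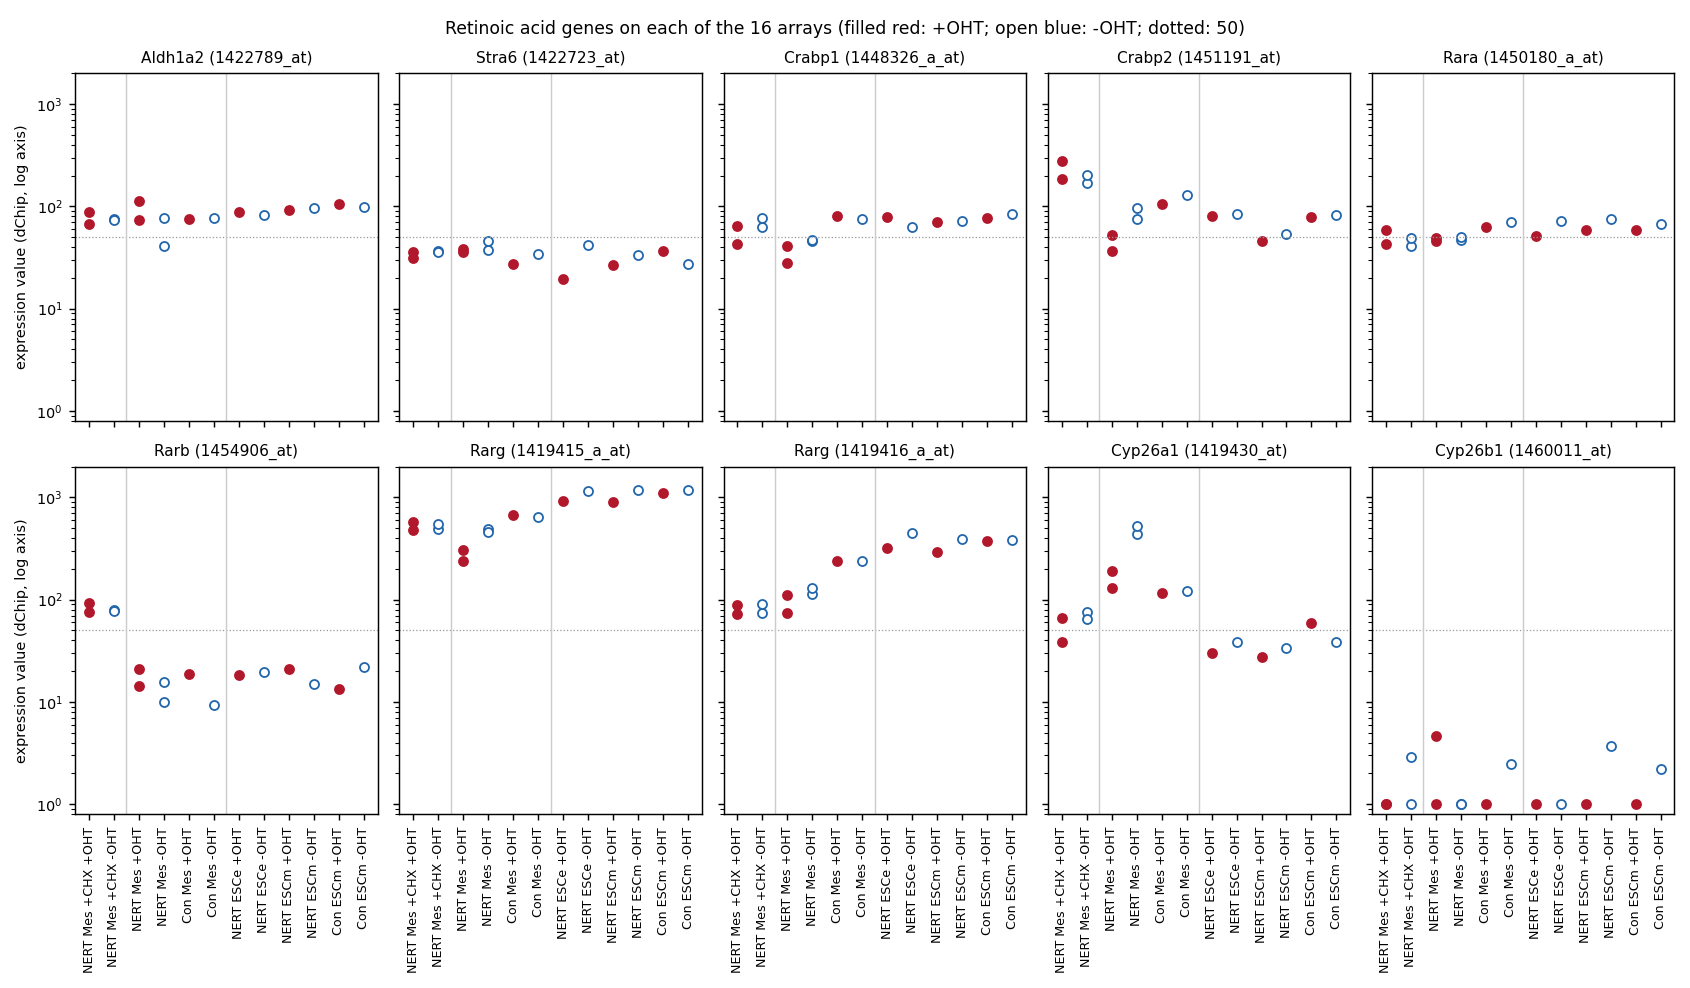
Expression value on a log axis for each of the 10 probe sets (panels), with 1 point per array in 12 groups, filled red with OHT and open blue without. Mes is mesodermal cells, Con is the control line, and the dotted line marks 50. Cyp26a1 is highest in the 2 uninduced NERT mesoderm arrays (442 and 529), and Rarb lies at 75.8 to 93.0 in the 4 arrays with CHX and at 22.2 or less in all others.

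Uninduced mesodermal cells were compared with ESC in ESCm in each line. In the fit of all 16 arrays the control line has 1 OHT term for both of its populations and the NERT line 1 for ESC in both media, so arrays with OHT also enter the differences between populations and between lines. In both lines Cyp26a1 was higher in mesodermal cells and Rarg was lower. In uninduced NERT mesodermal cells Cyp26a1 stood at 442 and 529, against 33.5 in uninduced NERT ESC in ESCm. Both mesoderm arrays lay above each of the 6 ESC arrays of the series, which ranged from 27.5 to 59.1. The difference was 3.10 on the scale of log2(value + 25) (SE 0.23), given as a description because these 2 mesoderm arrays are those from which the fall with OHT was read. In uninduced control mesodermal cells Cyp26a1 stood at 121, against 38.8 in uninduced control ESC in ESCm, and with OHT at 116, against 59.1. The limma difference over both pairs was 0.97 (SE 0.21, adjusted p = 0.00539). With the 12 conditions as separate groups, which sets only the uninduced arrays against each other, it was 1.20 and was not called (adjusted p = 0.063). Of the 8 member probe sets 4 were called with NERT and 3 with the empty construct, Cyp26a1 in each, where limma called 34.1% and 20.9% of all probe sets.

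Rarg, a receptor known from the primitive streak and tail bud of the embryo, was read by 2 probe sets that both fell with differentiation. Its first probe set (the brighter one), stood at 490 and 461 in uninduced NERT mesodermal cells, against 1181 in uninduced NERT ESC in ESCm, a limma difference of -1.25 (SE 0.17, adjusted p = 0.000109). Its second stood at 114 and 130, against 396, a limma difference of -1.53 (SE 0.19, adjusted p = 5.79e-05). Each mesoderm array without CHX lay below each of the 6 ESC arrays for both probe sets. In the control line the limma differences were -0.77 (SE 0.15, adjusted p = 0.00282) and -0.61 (SE 0.17, adjusted p = 0.0213). With the 12 conditions as groups neither was called in that line (adjusted p = 0.114 and 0.299).

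Rara, the broadly expressed receptor, stood at 47.3 and 50.2 in uninduced NERT mesodermal cells, against 75.0 in uninduced NERT ESC in ESCm. It fell by 0.46 (SE 0.16, limma adjusted p = 0.0395). The call was lost without either uninduced mesoderm array (adjusted p = 0.138 without replicate 1 and 0.0908 without replicate 2). In the control line Rara differed by 0.05 (95% interval -0.26 to 0.36). Aldh1a2, Crabp1, Crabp2 and Rarb were not called in either line, with differences of -0.53 to 0.52 for NERT and of -0.33 to 0.42 for control cells. Without replicate 2 of the uninduced NERT mesoderm arrays Aldh1a2 was called in the NERT line (-0.84, limma adjusted p = 0.0195), and without either array with CHX and OHT Crabp2 was called there (0.52, adjusted p = 0.0374).

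The lines were then compared with each other. In uninduced mesodermal cells Cyp26a1 stood at 442 and 529 in the NERT line, against 121 in the control line, 4.00-fold higher by the means. The difference was 1.91 on the log2 scale (SE 0.23), a description again, since the NERT arrays are those of the selection. In uninduced ESC in ESCm the values were 33.5 with NERT and 38.8 in control cells, a difference of -0.22 (interval -0.77 to 0.32). The second probe set of Rarg was lower in NERT than in control mesodermal cells (114 and 130, against 237, limma difference -0.84, SE 0.19, adjusted p = 0.0206), and this call was lost without either uninduced mesoderm array (adjusted p = 0.137 without replicate 1 and 0.0584 without replicate 2). The first probe set of Rarg stood at 490 and 461 in the NERT line, against 643 in the control line, and was not called. With Cyp26a1 counted, 2 of the 8 were past the threshold, beside 5.9% of all probe sets (1.8% without replicate 1 of the uninduced NERT mesoderm arrays and 3% without replicate 2). In ESC in ESCm none of the 8 was called between the lines (0.255% of all probe sets, 1 of the 8 at an unadjusted p under 0.05). For the gain from ESC to mesodermal cells, NERT minus control line, Cyp26a1 had 2.14 (SE 0.31), from the same arrays of the selection. None of the other 7 was called in limma, and 2 had an unadjusted p under 0.05, beside 1.37% of all probe sets called. The second probe set of Rarg was called for it only without replicate 1 or without replicate 2 of the NERT mesoderm arrays with OHT (-0.92, adjusted p = 0.0474 each) among the single arrays left out. The lines also differed in their markers: the 9 early mesoderm genes summed to 4367 to 5260 in uninduced NERT mesodermal cells, against 1564 in uninduced control mesodermal cells. The 8 ESC genes summed to 5438 to 5749 in NERT and 10508 in control cells. The 4 Notch response genes summed to 1006 to 1126 in uninduced NERT and 371 in uninduced control mesodermal cells, and limma called 1 of them higher. The part of these gaps in the difference of Cyp26a1 was not tested. In bulk RNA fewer cells that express a gene and less RNA per cell cannot be told apart.

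**Figure D2:**
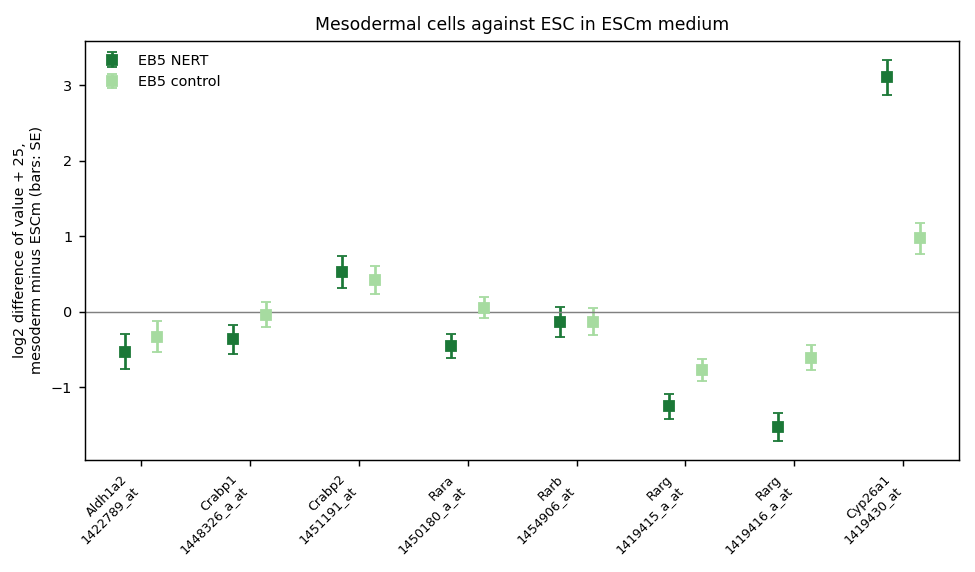
Differences between mesodermal cells and ESC in ESCm, for cells without OHT as fitted over all 16 arrays, in log2(value + 25) with bars of 1 SE, for the 8 tested probe sets of the NERT line (dark) and of the control line (light). Cyp26a1 is 3.10 higher with NERT and 0.97 higher in control cells, and both Rarg probe sets lie below 0 in both lines.

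The pathway around these genes was read from 3 lists. In NERT mesodermal cells against NERT ESC the 9 tested genes of retinoid supply had a median difference of 0.31, beside 0.07 over all tested probe sets. Of these genes 4 were higher and 0 lower, where 27.1% of all genes were called higher and 10.5% lower. They were Dhrs3, which reduces retinal to retinol (1.89, SE 0.23), Rdh11 (1.43, SE 0.35) and Rdh10, which oxidises retinol to retinal (1.36, SE 0.16), and Aldh1a3, a retinaldehyde dehydrogenase (0.87, SE 0.30). Dhrs3, Rdh10 and Rdh11 were also higher in the control line. Dhrs3 entered the test only through its level in mesodermal cells, and Aldh1a3 only through its level in NERT mesodermal cells. The count of higher genes thus depends in part on the filter. Of 13 tested genes known to respond to retinoic acid 6 were higher and 2 lower in the NERT line. Stra8, a gene of germ cells entering meiosis that is named for its response to retinoic acid, averaged 15.1 in uninduced NERT mesodermal cells, against 645 in uninduced NERT ESC in ESCm, and it was lower in the control line too (25.8, against 817). Hoxb1, a hindbrain and streak gene, averaged 177 in NERT mesodermal cells, against 14.6 in NERT ESC, and was not called in the control line, where it stood at 18.3 in mesodermal cells and 13.5 in ESC. For the difference between the lines Hoxb1 had 1.96 (SE 0.31), and limma called both it and Hoxb2. These calls are given as a description, because Hoxb1 and Hoxb2 entered the test only through their level in NERT mesodermal cells. Dhrs3, which is in this list too, entered only through its level in mesodermal cells. The partners and cofactors of the receptors had 2 higher and 1 lower of 9 in the NERT line: Ncoa2 and Fabp5, which carries fatty acids and can carry retinoic acid, were higher, and Ncoa3 was lower.

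Induction of Notch1 was examined first in mesodermal cells without CHX. Cyp26a1 stood at 129 and 190 with OHT, against 442 and 529 without it. The arrays of the groups did not overlap. The mean with OHT was 3.05-fold lower, and the log2 change was -1.49 (SE 0.23). Cyp26a1 was chosen with this fall in view, so no test of it is given. Over all probe sets limma called 0.893% in this contrast, and 0.262% to 0.48% when any 1 of its 4 arrays was left out.

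None of the other 7 probe sets was called with OHT in limma, and 2 had an unadjusted p under 0.05. The first probe set of Rarg stood at 237 and 303 with OHT, against 490 and 461 without it, a change of -0.77 (SE 0.19, limma adjusted p = 0.11). With all 16 arrays in the fit the same change was called (adjusted p = 0.0183). The second probe set of Rarg stood at 73.4 and 111 with OHT, against 114 and 130 without it (change -0.34, interval -0.78 to 0.09). Both probe sets were lower in each array with OHT than in each without it. How many of all probe sets separate in this way over so few arrays was not counted, so this is a description.

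Crabp2, which delivers retinoic acid to its receptors, stood at 36.4 and 53.0 with OHT, against 75.1 and 96.5 without it. The change of -0.67 (SE 0.22) missed the threshold (limma adjusted p = 0.299). Aldh1a2, Crabp1, Rara and Rarb had changes of -0.27 to 0.50. The arrays of Aldh1a2 overlapped, with 73.9 and 112 with OHT and 41.4 and 76.2 without. Rara was nearly level, at 46.0 and 49.2 with OHT and 47.3 and 50.2 without (change -0.02, interval -0.38 to 0.34).

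With CHX present OHT moved no member past the threshold, and 0 of 8 had an unadjusted p under 0.05, where limma called 0.617% of all probe sets. That share rested on single arrays: it was 2.52% without replicate 2 of the arrays with CHX and OHT, where 37.6% of the calls were higher, against 91.9% with all arrays, and it was 0.342% and 0.381% without either array with CHX alone. Cyp26a1 stood at 38.7 and 66.8 with CHX and OHT, against 75.3 and 65.4 with CHX alone, and the groups overlapped (change -0.32, SE 0.23). The first probe set of Rarg stood at 579 and 475, against 496 and 549 (change 0.01, interval -0.41 to 0.42). Crabp2 stood at 275 and 185, against 168 and 200 (change 0.27, interval -0.21 to 0.75).

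The difference between the responses with and without CHX was tested in its own right. None of the 8 probe sets passed limma, and 3 had an unadjusted p under 0.05 (0.025% of all probe sets were called, and 0.198% without replicate 2 of the arrays with CHX and OHT). Crabp2 differed by 0.94 (SE 0.31, adjusted p = 0.891) and the first probe set of Rarg by 0.78 (SE 0.26, adjusted p = 0.94). For Cyp26a1 the difference was 1.17 (SE 0.32).

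In ESC the members did not pass the test for OHT, with 0 of 8 called and 2 at an unadjusted p under 0.05, beside 0.538% of all probe sets called by limma. Both of the 2 belonged to Rarg. Its first probe set stood at 928 with OHT, against 1161 without it, in ESCe, and at 900 with OHT, against 1181 without it, in ESCm. Over both media the change was -0.35 (SE 0.15, limma adjusted p = 0.749), and that of the second probe set was -0.43 (SE 0.17, adjusted p = 0.644). Each NERT ESC array with OHT thus lay below each NERT ESC array without it for both Rarg probe sets, a description, since the share of all probe sets that do so was not counted. Cyp26a1 was low in ESC, at 29.9 with OHT and 38.6 without it in ESCe, and at 27.5 with OHT and 33.5 without it in ESCm (change -0.18, interval -0.63 to 0.26). The response of Cyp26a1 in mesodermal cells minus that in ESC was -1.30 (SE 0.29), and in limma no member passed for that difference, beside 0.031% of all probe sets.

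Between the media ESCe and ESCm none of the 8 was called in limma, as was 0% of all probe sets, and 1 had an unadjusted p under 0.05: Crabp2 stood at 83.9 in ESCe and 53.2 in ESCm without OHT.

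In the control line OHT moved none of the 8 past the threshold (0% of all probe sets, and 0 of 8 at an unadjusted p under 0.05 in limma). Cyp26a1 stood at 116 with OHT and 121 without it in control mesodermal cells. In control ESC it stood at 59.1 with OHT and 38.8 without it. The first probe set of Rarg stood at 669 with OHT and 643 without it in control mesodermal cells. For the response of NERT mesodermal cells minus that of control cells Cyp26a1 had -1.66 (SE 0.29), which rests on the fall that led to the choice. None of the other 7 was called for it in limma, and 1 had an unadjusted p under 0.05, beside 0.437% of all probe sets called.

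CHX changed several members, and the changes ran both ways. In mesodermal cells without OHT limma called 3 of 8 probe sets, beside 32.8% of all, and with OHT it called 4 of 8, beside 40.5% of all. These shares lie near those of the whole array. Rarb is in the counts because the groups with CHX brought it through the filter, and Cyp26a1 because of the fall for which it was chosen. Without OHT the share of all probe sets was 16.2% without replicate 1 of the arrays with CHX alone, and 16.7% and 18.5% without either array with neither. The contrasts without and with OHT share no array.

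Rarb, the receptor whose own promoter carries the element shown above, was near the floor without CHX and higher with it. It stood at 93.0 and 75.8 with CHX and OHT, against 21.2 and 14.2 with OHT alone. It stood at 78.9 and 77.5 with CHX alone, against 15.5 and 9.97 with neither. All 4 arrays with CHX lay above all 12 without it, whose highest value was 22.2. The difference was 1.36 (SE 0.16) with OHT and 1.45 (SE 0.16) without it, given as a description because Rarb was tested only through its level with CHX. These log2 values carry the added 25 and understate the change of so low a gene.

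Crabp2 rose with CHX. It stood at 275 and 185 with CHX and OHT, against 36.4 and 53.0 with OHT alone, 5.15-fold higher by the means (log2 change 1.86, SE 0.22, limma adjusted p = 0.000123). Without OHT it stood at 168 and 200 with CHX, against 75.1 and 96.5 with neither, 2.15-fold higher (log2 change 0.92, SE 0.22, adjusted p = 0.00895). That call was lost without replicate 1 of the arrays with neither (0.78, adjusted p = 0.0801) and without replicate 2 of those with CHX alone (0.81, adjusted p = 0.0627). The highest array without CHX was 128, in uninduced control mesodermal cells.

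Cyp26a1 was lower with CHX, the other fall for which it was chosen. With OHT it stood at 38.7 and 66.8 with CHX, against 129 and 190 without it (log2 change -1.25, SE 0.23). Without OHT it stood at 75.3 and 65.4 with CHX, against 442 and 529 without it, 6.90-fold lower by the means (log2 change -2.42, SE 0.23). All 4 arrays with CHX were at or below 75.3. The early mesoderm list fell in the same arrays, with 8 of 9 genes lower without OHT, and its summed level was 1293 to 1500 with CHX alone, against 4367 to 5260 with neither. Lhx1 of this list entered the test only through its level without CHX. The part of that fall in the value of Cyp26a1 was not tested.

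The 2 probe sets of Rarg did not move together under CHX. In cells with OHT the first stood at 579 and 475 with CHX, against 237 and 303 without it, a rise of 0.91 (SE 0.19, limma adjusted p = 0.00335). The second stood at 72.9 and 89.6 with CHX, against 73.4 and 111 without it (change -0.13, SE 0.20, adjusted p = 0.635). In cells without OHT the first changed by 0.13 (interval -0.29 to 0.54) and the second by -0.46 (SE 0.20, adjusted p = 0.0973). Which transcript of Rarg each probe set reads is not given in the sources used here. Aldh1a2, Crabp1 and Rara were not called with CHX, with changes of -0.08 to 0.41 without OHT and -0.19 to 0.40 with it.

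**Figure D3:**
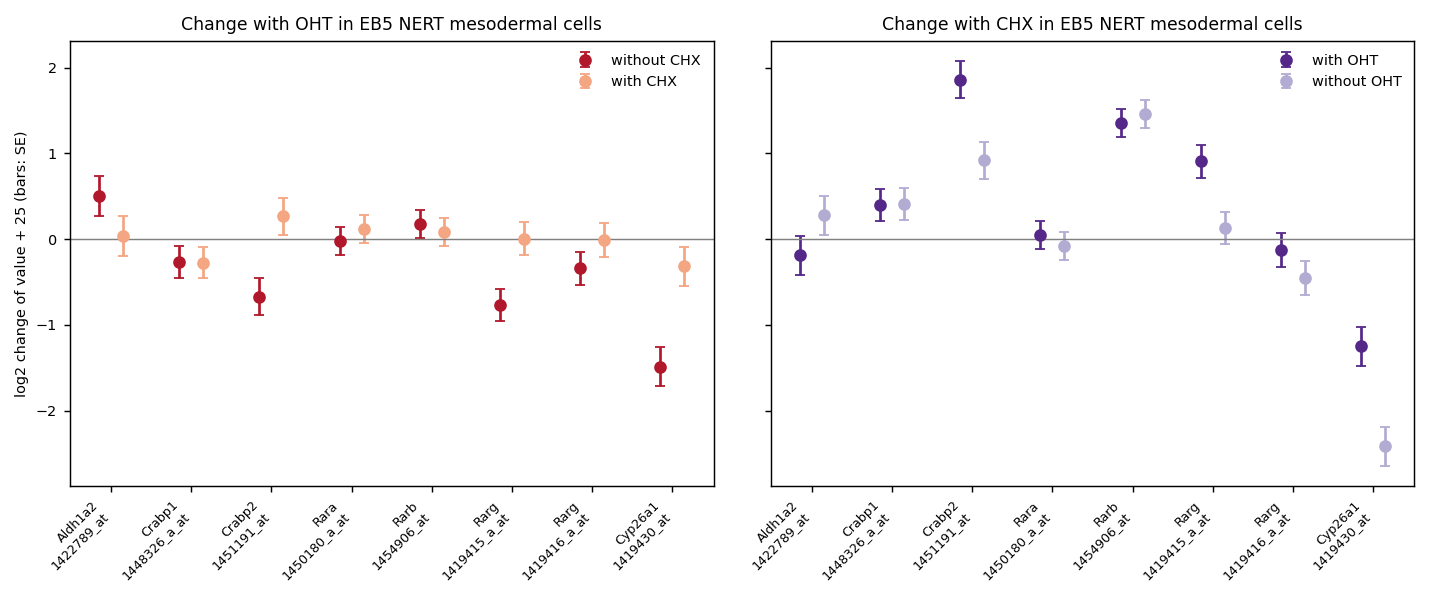
Changes in log2(value + 25) with bars of 1 SE for the 8 tested probe sets in NERT mesodermal cells, with OHT on the left (dark without CHX, light with CHX) and with CHX on the right (dark with OHT, light without OHT). Cyp26a1 falls by 1.49 with OHT in the absence of CHX and lies at -0.32 in its presence, while Crabp2 (1.86 and 0.92) and Rarb (1.36 and 1.45) lie above 0 with CHX.

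Among the lists, genes known to respond to retinoic acid had 7 higher and 1 lower of 12 tested under CHX alone. Their median change was 1.03, beside 0.06 over all tested probe sets, and 24.3% of all genes were called higher and 9.48% lower. The higher ones were Stra8, Hoxb2, Meis2, Meis1, Foxa1, Hoxb1 and Dhrs3. Of these, Stra8, Meis1 and Foxa1 entered the test only through their level with CHX. The count and the median thus depend in part on the filter, as does the count with OHT present. Stra8 averaged 143 with CHX alone, against 15.1 with neither (log2 change 2.07, SE 0.17). Hoxb2 averaged 429, against 90.8 (1.97, SE 0.19). Cdx1, a homeobox gene of the posterior embryo, was the 1 that fell (-0.60, SE 0.21). With OHT present the list had 7 higher and 2 lower, Cdx1 and Tgm2, beside 31% and 11.1% of all genes. In retinoid supply Rdh10 (1.04, SE 0.17) and Dhrs3 (0.99, SE 0.22) rose with CHX alone and Rdh11 fell by 1.44 (SE 0.35). The neuroectoderm markers moved with these genes: 3 of 4 tested rose with CHX alone, and the 6 measured summed to 778 to 821 with CHX alone, against 282 to 372 with neither. Of the 4, Pax6, Sox1 and Zic1 entered the test only through their level with CHX, so this count depends largely on the filter. Of the 5 tested endoderm markers 2 rose with CHX alone, and 4 rose with CHX in cells with OHT. Sox7 entered that test only through its level with CHX. The 8 endoderm markers measured summed to 504 to 608 with CHX alone, against 409 to 427 with neither. What part these have in the rise of the list was not tested.

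**Figure D4:**
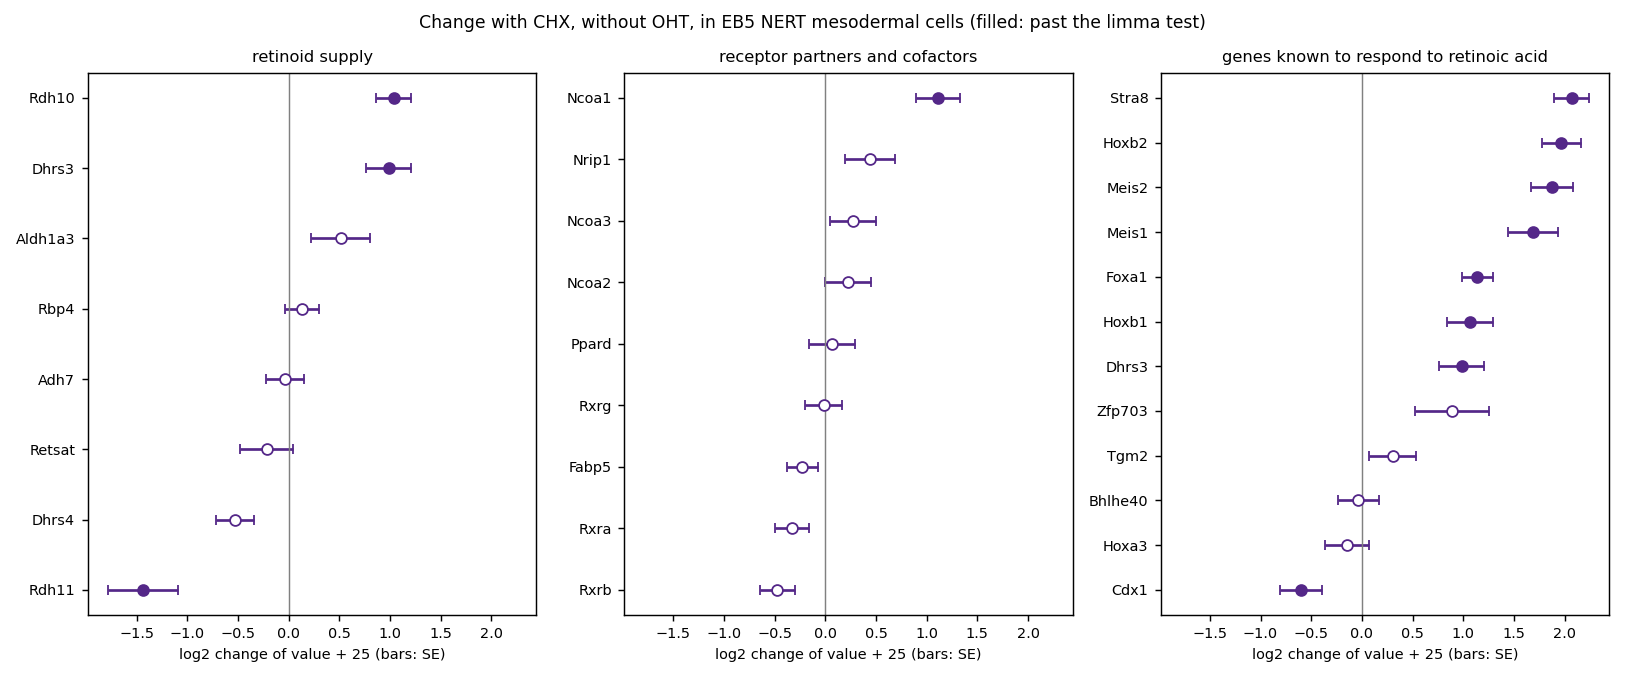
Changes with CHX in NERT mesodermal cells without OHT, in log2(value + 25) with bars of 1 SE, for the tested genes of 3 lists, with filled points for genes past the limma test. Of the 12 genes known to respond to retinoic acid 7 lie above 0 with a call, from Dhrs3 (0.99) to Stra8 (2.07), and Dhrs3 stands in both outer panels. Stra8, Meis1 and Foxa1 entered the test only through their level with CHX.

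OHT called 2 of the 12 genes known to respond to retinoic acid in mesodermal cells without CHX, both higher, beside 0.747% of all genes called higher and 0.386% lower. Tgm2, a transglutaminase, averaged 700.0 with OHT, against 119 without it (log2 change 2.34, SE 0.23, limma adjusted p = 0.000932). Cdx1 averaged 199, against 81.3 (1.07, SE 0.21, adjusted p = 0.0428). With CHX present Tgm2 again was higher with OHT (406, against 153, change 1.27, adjusted p = 0.0355). None of the 8 tested genes of retinoid supply and none of the 9 partners and cofactors was called with OHT in mesodermal cells, with or without CHX.

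Likeness of pattern was measured by Pearson's r of log2(value + 25) over the 12 group means among 6053 genes with a range of at least 1. The points share arrays and the largest part of their spread is between populations and CHX, so the coefficients are descriptions. Nearest to Cyp26a1 were Abhd14b (0.97), Pyurf (0.96) and Spry1 (0.95), a feedback inhibitor of growth factor receptor signalling. Nearest to Rarb were Rundc1, Uggt1 and Tbc1d23 (0.98 each). Nearest to Rarg were L1td1 (0.98), a gene of undifferentiated ESC, C730049O14Rik (0.98) and Sulf2 (0.97). Nearest to Crabp2 were Slc20a1 (0.96), Rgcc (0.96) and Fam117a (0.95).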

How the data were processed

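The authors deposited linear intensities from Affymetrix whole-genome mouse arrays, with 1 value per probe set modelled in dChip. Invariant-set normalization had brought each array to that of OHT-treated control mesodermal cells, and the values were used as they stand. Array medians were 42.0 to 46.9, and 46.2% to 48.7% of values were 50 or more. Detection calls were not used. The platform annotation gave 34945 probe sets 1 symbol, 932 several and 9160 none, and 34741 of the first were found in RefSeq's gene table. Each gene of the pathway lists was read from the probe set with its highest mean.

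The test was limma 3.58.1 (R 4.3.3; lmFit, then eBayes with a trend) on log2(value + 25). A probe set entered if the mean of any group reached 50, and p-values were adjusted by Benjamini-Hochberg over all that entered (threshold 0.05). A gene low elsewhere thus entered only through the groups where it was high, and the counts of the lists hold such genes. Contrasts within NERT mesodermal cells used those 8 arrays (23971 probe sets, 4 residual degrees of freedom), and the others all 16 (25847, 6 residual degrees of freedom), where the OHT response was shared over both ESC media and over both control populations and single arrays were taken to vary as replicated ones do. Intervals are 95% from the fit. Named genes are all members, the 3 genes nearest in pattern to each member of at least 1 in range, and called members of the lists. The members and lists were chosen with earlier results of these data known. Promoter windows came from RefSeq. Alternatives were other pseudocounts, no filter, quantile normalization, replicate number as a block, each NERT mesoderm array left out in turn, and other groupings of the arrays. No ESC array and no control array was left out. Other tables and figures came from Python 3.11.15 (numpy 2.4.6, pandas 2.3.3, matplotlib 3.10.9), and the tests were tried on simulated data. The number of arrays limits the precision. Some genes of the lists are not reported here.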

Additional observations from a re-analysis of the deposited data

Results flagged for a closer look

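The response of Cyp26a1 to OHT differed between NERT mesodermal cells and control cells by -1.66 on the log2 scale (SE 0.29). The term for this difference called 0.437% of all probe sets, and it uses the fall for which Cyp26a1 was chosen. The NERT mesodermal cells had 129 and 190 with OHT and 442 and 529 without it, while the control mesodermal cells had 116 with OHT and 121 without it. The control response is shared with control ESC in ESCm, which had 59.1 with OHT and 38.8 without it and so enter the difference.

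The rise of Cyp26a1 from ESC to mesodermal cells differed between the NERT and the control line by 2.14 (SE 0.31), where 1.37% of all probe sets were called. With the 12 conditions as groups it was 1.92. It uses the uninduced NERT mesoderm arrays of the first difference, and the early mesoderm markers differed between the lines in the same arrays.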

How the results depend on the processing

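Over 36 values of members that were followed in 540 alternatives, 506 kept their direction and side of the threshold, 23 lost a call, 11 gained one and 0 changed sign. Only values that were called or had a larger change in the main fit were followed. Small changes, which can change sign more easily, are thus not in these counts. Single arrays decided several counts of called member probe sets. Only arrays of NERT mesodermal cells were left out, 1 at a time. The ranges below thus do not show how counts for ESC and control cells depend on their own single arrays. Leaving out 1 array gave 0 to 1 for OHT without CHX (1 with all arrays), 0 to 0 for OHT with CHX and for the difference between these, 2 to 3 for CHX without OHT, 4 to 5 for CHX with OHT, 0 to 0 for OHT in ESC and in control cells and for mesoderm minus ESC, 0 to 1 for mesoderm minus control cells, 3 to 5 for mesoderm against ESC in the NERT line and 3 to 3 in the control line, 1 to 2 for the difference of the lines, 1 to 2 for NERT against control mesodermal cells, and 0 to 0 for the lines in ESCm and for the media. The calls of Cyp26a1 for OHT without CHX and for mesoderm minus control cells rest on the fall for which it was chosen. Counts that hold these calls describe the processing and are no test of Cyp26a1. Over the alternatives its log2 change for OHT without CHX was -1.73 to -1.18. With all 16 arrays OHT without CHX gave 2, the first Rarg probe set being added. With the 12 conditions as groups the counts were 0 for mesoderm minus control cells, 0 for mesoderm against ESC in the control line (3 otherwise), 0 for the difference of the lines and 1 for NERT against control mesodermal cells (2 otherwise). A pseudocount of 5 gave 0 for mesoderm minus control cells. Quantile normalization gave 2 for the difference of the lines, the second Rarg probe set being added. The causes were not tested. The labels do not say whether replicate numbers pair the samples, and they were not taken as pairs: deviations of same-numbered arrays correlated by 0.01 to 0.51, and with the replicate block the difference of the lines gave 2 and all probe sets called for OHT without CHX were 339, not 214. Leaving out 1 array also moved the share of all probe sets called by over 1.5 times. Without either array with CHX and OHT it was 0.909% and 0.892% for OHT in ESC (0.538% otherwise), 0.0735% and 0.0731% for mesoderm minus ESC (0.031%), 0.673% and 0.669% for mesoderm minus control cells (0.437%), 3.37% and 3.33% for the difference of the lines (1.37%), 9.99% and 9.93% for the lines in mesodermal cells (5.9%) and 0.395% and 0.392% for those in ESCm (0.255%). Without replicate 1 of the uninduced NERT mesoderm arrays it was 0.0116%, 0.197% and 0.452% for mesoderm minus ESC, mesoderm minus control cells and the difference of the lines, and without replicate 2 it was 0.872% for the last and 0.0193% for the first. Mesoderm minus ESC had 0.0194% and 0.0193% without either array with CHX alone, the difference of the lines had 2.06% without replicate 1 with OHT, and the difference of the OHT responses with and without CHX ranged from 0.0125% to 0.198%. Quantile normalization moved the share of calls that were higher to 50.3% for CHX without OHT (64.3% otherwise), 49.9% for CHX with OHT (65.4%), 50% and 67.2% for mesoderm against ESC in the NERT line and the difference of the lines (67% and 81.7%), 60.1% and 50.5% for the lines in mesodermal cells and in ESCm (74.8% and 37.9%), and 100% for mesoderm minus ESC (87.5%). It shifted the median of all probe sets by -0.14 for CHX with OHT and by -0.12 for mesoderm against ESC in the NERT line, and no followed member changed direction. Low signals limit Cyp26b1 and Stra6, which were not tested.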
